A study of Mus musculus with 4 samples.

Results

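Of the 2454 peaks in the deposited Flag ChIP-seq list, 248 (10.1%, 8.94 to 11.4, 95% exact binomial interval) had their maximum more than 100 kb from every annotated transcription start, and these far peaks are described here. They were chosen by position alone, from the peak maximum on genome build mm9 and the transcript starts of GENCODE release M1, and they lay in 229 of the list's 2301 regions. Of the far peaks, 195 were intergenic, 52 were intronic and 1 was exonic. The exonic peak was in Cradd on chromosome 10 (94637922 to 94638421), with a ChIP score of 33.72.

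The cells were iMN-ESCs, mouse embryonic stem cells derived from the A172LoxP line and selected with G418 as stable transfectants, in which doxycycline (Dox) turns on a Flag-tagged fusion of the transcription factors Isl1 and Lhx3. Anti-Flag chromatin immunoprecipitation was sequenced from 4 libraries in 2 numbered sets, each with 1 library from cells with Dox and 1 from cells without it. In both groups embryoid bodies were kept for 2 days in retinoic acid (0.5 µM) and then for 4 more days in retinoic acid, with Dox (2 µg/mL) in the induced group only, and all were treated with LIF at 1000 units/mL for 16 hours before harvest. The deposited list has 1 row per peak and no value per library, so the groups could not be compared, the spread between sets and the depth of each library are unknown, and every comparison below is between peaks, or between a peak and its flanking sequence. The list holds no gene expression, so the cell type could not be checked against markers. A score from bulk chromatin does not tell more cells with a bound site from more binding per cell.

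Isl1 and Lhx3 are LIM-homeodomain factors. Together, joined by the adaptor NLI (Ldb1), they form the complex that specifies spinal motor neurons, and homeodomains of this kind bind AT-rich sites with the core TAATTA. Regulatory elements can lie very far from the promoters they act on, and genes for developmental regulators and cell adhesion molecules often border long stretches with few genes, called gene deserts. Distance alone does not give the target of such an element, so a gene named below is the one with the nearest start and not a known target.

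The windows of 200 bp centred on the maximum are shown for the strongest far peak and for the 4 strongest far peaks with TAATTA, because the first carries no core and the others show how the core sits near the maximum. In the first window the capitals mark the short homeodomain core ATTA or its reverse complement TAAT, and in the other 4 they mark TAATTA. Sequences are from mm9, 5′ to 3′.
Ncam1 peak, chr9:49744217-49744416, plus strand: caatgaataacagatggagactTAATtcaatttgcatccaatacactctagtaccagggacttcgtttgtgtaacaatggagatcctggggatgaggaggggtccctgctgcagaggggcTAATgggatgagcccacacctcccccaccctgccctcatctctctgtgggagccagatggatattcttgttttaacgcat
Gm13849 intron peak, chr6:31837073-31837272, plus strand: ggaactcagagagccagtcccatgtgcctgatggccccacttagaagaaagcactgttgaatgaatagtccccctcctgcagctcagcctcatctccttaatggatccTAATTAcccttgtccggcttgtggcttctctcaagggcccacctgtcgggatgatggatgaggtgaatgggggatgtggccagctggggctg
Myof peak, chr19:37952384-37952583, plus strand: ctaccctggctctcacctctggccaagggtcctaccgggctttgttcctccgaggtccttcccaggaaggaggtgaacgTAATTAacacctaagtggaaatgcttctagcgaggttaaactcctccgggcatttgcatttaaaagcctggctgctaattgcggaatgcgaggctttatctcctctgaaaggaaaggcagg
Serp2 peak, chr14:77098820-77099019, plus strand: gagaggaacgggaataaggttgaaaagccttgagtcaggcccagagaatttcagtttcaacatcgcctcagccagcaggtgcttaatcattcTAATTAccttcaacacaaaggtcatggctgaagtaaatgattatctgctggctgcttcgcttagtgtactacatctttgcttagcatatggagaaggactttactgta
Aig1 intron peak, chr10:13410729-13410928, plus strand: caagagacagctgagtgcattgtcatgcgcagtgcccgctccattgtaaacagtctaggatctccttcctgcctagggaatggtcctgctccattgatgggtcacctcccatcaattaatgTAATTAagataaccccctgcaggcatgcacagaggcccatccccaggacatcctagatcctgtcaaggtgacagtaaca

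The core lay near the centre in the windows of the Gm13849 and Serp2 peaks. The Ncam1 window had no TAATTA but held the octamer bound by POU factors and the hexamer ATTGTT, a site bound by SOX factors, on its reverse strand.

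Far peaks did not differ detectably in strength from the rest of the list by the deposited scores. Their ChIP score, the authors' value with no stated scale, ran from 29.98 to 145.87 with a median of 41.22 (quartiles 34.53 and 54.07), against a median of 40.95 for the 2206 other peaks. A score above the list median was found in 125 of 248 far peaks (50.4%, 44.0 to 56.8) and in 49.7% of other peaks, with an odds ratio of 1.03 and an interval of 0.785 to 1.35 (two-sided Fisher's exact test, adjusted p = 0.893). The tag counts per region had a median of 31 in both groups, and the share above the list median was 49.2% for far peaks and 49.8% for the others (odds ratio 0.975, 0.743 to 1.28, exact test, adjusted p = 0.893). A background score of 0 was listed for 83 far peaks (33.5%) and 30.8% of other peaks (odds ratio 1.13, 0.845 to 1.51, exact test, adjusted p = 0.579), and in 237 far peaks (95.6%) the background was no more than 10% of the ChIP score. That limit of 10% was also met by 94.5% of other peaks, with no test made. The odds ratio intervals leave room for modest differences in either direction. The exact intervals cover counting error only.

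At the top of the list, 0 of the 10 highest scores and 8 of the highest 100 belonged to far peaks (3.23% of far peaks, 1.40 to 6.26, against 4.17% of other peaks). Within the far peaks, score did not follow distance (Spearman's rho -0.0037 over 248 peaks, a description since peaks of 1 region share tags). Score and tags ranked alike (rho 0.685). The plot of score by distance shows the first of these.

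**Figure D1:**
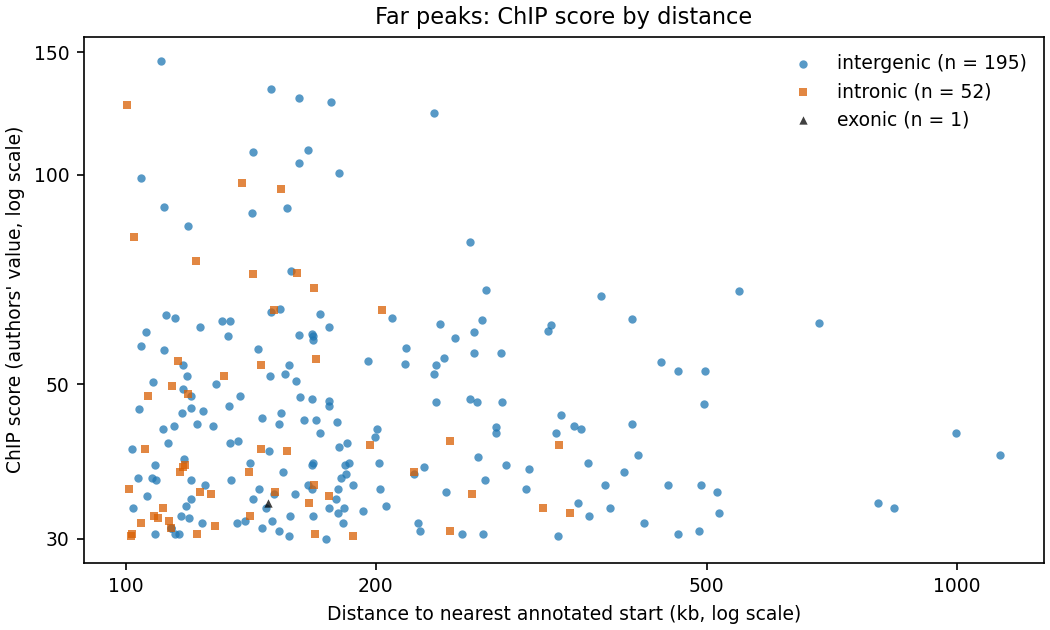
ChIP score (authors' value, log scale) of each of the 248 far peaks against the distance of its maximum from the nearest annotated start (kb, log scale), with intergenic, intronic and exonic peaks marked. Scores run from 29.98 to 145.87, and the peaks beyond 500 kb lie within the range of the nearer ones.

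The strongest far peak lay between Ncam1 and Rpl10-ps3 on chromosome 9 (49744068 to 49744567), 137 kb upstream of Ncam1, which encodes the neural cell adhesion molecule. Its ChIP score was 145.87, rank 32 in the list, over a background of 0.01, from 115 tags (94.9 to 138, exact Poisson interval). A U6 RNA gene was nearer, at 110 kb. The next, on chromosome 9 (61070172 to 61070671), was 150 kb from the start of the predicted gene Gm10655, with a score of 132.75. The third (129.01) and the seventh (108.4) lay 3.74 kb apart on chromosome 19, in the gap of 346 kb between Myof, which encodes a membrane repair protein, and Cyp26a1, which encodes an enzyme that breaks down retinoic acid. Of this pair only the weaker peak held TAATTA, and of all 4 far maxima in their 2 regions 2 held it.

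Etv1, which encodes an ETS factor that marks motor pools and their sensory partners, was the nearest coding gene of a peak of score 127.4 on chromosome 12 (39821202 to 39821701), at 257 kb. An intron of the noncoding gene Gm13849 on chromosome 6 (31836924 to 31837423) held a peak of 125.8 with TAATTA. Serp2, which encodes a protein of the endoplasmic reticulum, was the nearest coding gene of peaks of 122.58 and 107.86 on chromosome 14, at 235 kb and 142 kb. The ninth peak, of 103.85, lay between Tnfaip3, an inhibitor of inflammatory signalling, and Olig3, a basic helix-loop-helix factor of dorsal neural progenitors, on chromosome 10 (18897069 to 18897568). The tenth, of 100.64, was 181 kb from Shox2, a homeodomain gene, on chromosome 3 (66601437 to 66601936). Of these 10 peaks 3 held TAATTA, 2 the octamer and 2 the SOX hexamer, and 9 were intergenic.

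The farthest peaks were of ordinary strength. The pair with the longest distances lay in the gap of 4443 kb between Olfm4, which encodes a secreted glycoprotein, and Pcdh17, a protocadherin gene, on chromosome 14. One was 1127 kb from the nearest start (81527152 to 81527651, score 39.61) and the other 999 kb (81398819 to 81399318, score 42.56). The next were a peak beyond Cntn5 on chromosome 9 at 839 kb (33.19), one beyond Fam135b on chromosome 15 at 804 kb (33.72) and one on chromosome 14 at 682 kb (61.29). At the threshold itself, the nearest members were the Gm13849 peak at 100.5 kb (125.8) and a peak 101 kb upstream of Id4, an inhibitor of basic helix-loop-helix factors (35.33). Just outside it were a peak at 99.2 kb from a U6 gene near Fam43a (35.06) and an intronic Smyd3 peak at 98.4 kb (40.42).

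Far peaks were sparser than other peaks for the sequence available. Of 2559 Mb of known bases, 563 Mb (22.0%) lie more than 100 kb from a start and are called eligible here. That gives 0.440 far peaks per Mb of eligible sequence, against 1.11 other peaks per Mb of the rest, with no test made. The nearest start belonged to a protein-coding gene for 146 far peaks (58.9%, against 70.1% of other peaks), to a small nuclear RNA gene for 27, a small nucleolar RNA gene for 21, a microRNA gene for 16, a pseudogene for 16 and a lincRNA gene for 12. The median distance was 163 kb to any start and 195 kb to a coding start, and 41 far peaks (16.5%) were over 500 kb from a coding start. With coding starts alone the same threshold takes in 453 peaks.

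By chromosome, far peaks stood above their share of the eligible sequence on chromosome 14 (26 peaks, ratio 1.60, 1.06 to 2.28) and chromosome 19 (12 peaks, 2.52, 1.31 to 4.32), and below it on the X chromosome (1 peak, 0.145, 0.00367 to 0.801). The intervals of the other autosomes include 1, and no test was made. The whole list was uneven too. It held 186 peaks on chromosome 14, the most of any chromosome, 86 on chromosome 19 and 34 on the X chromosome. Of these, 14.0%, 14.0% and 2.94% were far, against 10.1% of all peaks. The highest far shares were on chromosomes 12, 13 and 16 (19.2%, 19.4% and 19.5%), whose ratio intervals include 1. Counts of all peaks were not scaled by chromosome length. On chromosome 14, 5 far regions with scores of 43.89 to 122.58 stood within 222 kb between Serp2 and 9030625A04Rik. On chromosome 19, 4 of the 12 far peaks were maxima of 2 regions nearest to Myof. The intervals count each maximum as independent and make no allowance for the number of chromosomes looked at. The share of known bases that count as far was 9.65% on the X chromosome, 9.16% on chromosome 11 and 10.5% on chromosome 2, against 30.4% on chromosome 14, and with coding starts alone the X chromosome held 10 peaks beyond the threshold. The density of annotated starts thus differs between chromosomes, and its part in these counts was not tested.

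**Figure D2:**
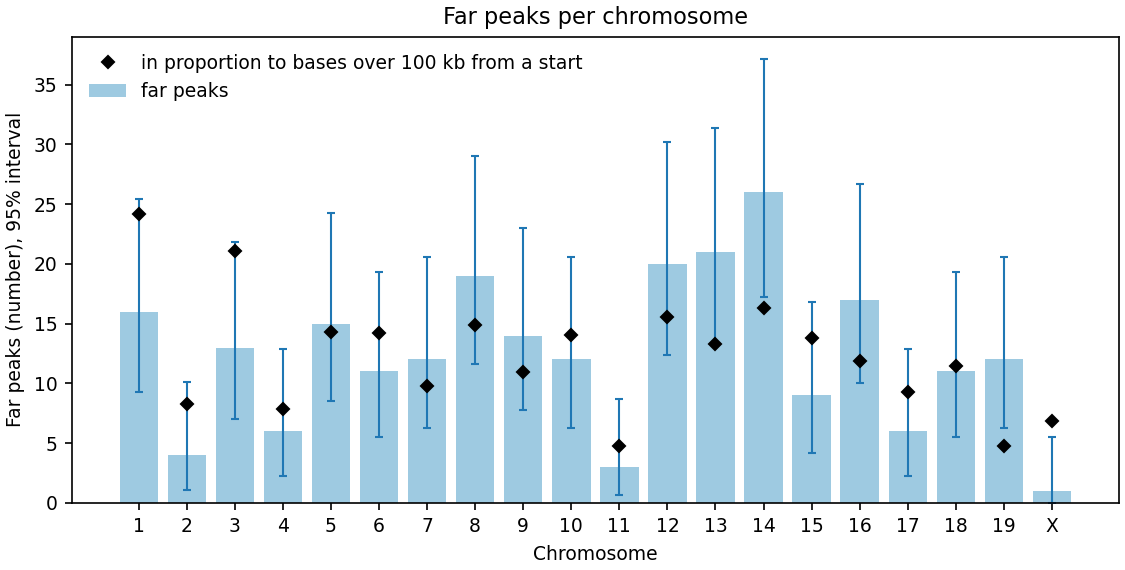
Far peaks on each chromosome (bars, with 95% exact intervals) and the number in proportion to the known bases over 100 kb from a start (diamonds). Chromosomes 14 and 19 stand above the diamonds and X below, and the intervals of the other chromosomes span them.

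Far peaks had a close neighbour less often than other peaks. Another region's maximum lay within 10 kb of 16 far peaks (6.45%, 3.73 to 10.3) and of 279 other peaks (12.6%), giving an odds ratio of 0.476 (interval 0.264 to 0.806, adjusted p by the exact test = 0.0111). The call was lost with a threshold of 50 kb (odds ratio 0.786) or 200 kb (0.282), with coding starts alone (0.706) and in the higher-scoring 50% of peaks (0.463), with the direction unchanged. Regions with several maxima gave 34 far peaks (13.7%) against 11.5% of other peaks (odds ratio 1.22, 0.805 to 1.81, exact test, adjusted p = 0.579). Within 100 kb of each other, 48 of the 229 far regions formed 22 groups of 2 or more. Counting any region of the list, another lay within 100 kb of 26.2% of far peaks and 41.4% of other peaks, with no test made.

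Stim2, which encodes a calcium sensor of the endoplasmic reticulum, had the most far peaks of any coding gene. All 5 were maxima of 1 region on chromosome 5, 1676 kb from its start, with scores of 32.39 to 57.81 and a single count of 92 tags for the region. Myof and Serp2 were nearest to 4 far peaks each, in 2 and 3 regions. Gm10655, 1300010F03Rik, Gm9966, Arl4a, Cntn5 and Fgf12 were nearest to 3 each. Fgf12, which encodes an intracellular factor that binds sodium channels, had its 3 peaks in 3 regions at 360 to 492 kb, and Arl4a, which encodes a small GTPase, had TAATTA in all 3 of its peaks. These 9 genes held 31 far peaks, 26 genes had 2 each and 165 genes had 1.

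Gene lists were read by the nearest coding start, with the share of far peaks set beside the share of eligible bases nearest to the same genes, and without a test. Cell adhesion genes and synaptic organisers stood nearest to 17 far peaks of 13 genes (6.85%, 4.04 to 10.7), against 1.18% of other peaks, and held 9.34% of the eligible bases. Beside Ncam1 these were led by the classical cadherin gene Cdh9, whose stronger peak on chromosome 15 (score 68.25, 271 kb) had TAATTA, and the protocadherin genes Pcdh10 (66.91, 1080 kb) and Pcdh7 (52.19, 1596 kb). Several of the 17 belong to the sequence families described below, at Pcdh10, Cdh9 (the stronger peak), Cdh2, Cdh19, Cntnap5b, Cntn5 and Slitrk5. The list of developmental transcription factors of gene deserts took 10 far peaks of 9 genes (4.03%, against 2.67% of other peaks and 3.09% of eligible bases). Among them were Klf5 (63.43), Foxc1 (54.33, in an intron of its neighbour Gmds), Tcf7l2, a Wnt pathway effector (53.26, in an intron of Vti1a), and Zfhx3 (43.09). The last 3 had TAATTA, and the Klf5 peak had a background of 7.03, more than 10% of its score.

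Axon guidance genes were nearest to 5 far peaks (2.02% against 2.52% of eligible bases): 2 at Plxna2, a semaphorin receptor gene (stronger score 47.64), 1 at Sema6a (42.56) and 2 in introns of Robo1, the Slit receptor gene (stronger score 40.95). The motor column and pool list had 2 (0.806% against 1.02%), at Etv1 and at Aldh1a2, which encodes a retinoic acid synthesising enzyme (30.51, 116 kb, with TAATTA). Spinal interneuron factors had 1 (0.403% against 0.234%), at En1 (30.24, 157 kb). Ion channels and receptors also had 1 (0.403% against 2.63%, or 6.53 peaks in proportion to eligible bases), in an intron of Gabrg3 (33.19). Pluripotency genes had 3 (1.21% against 0.195% of eligible bases and 1.04% of other peaks), 2 of them at Sox2 (37.47 for the stronger, 413 kb) and 1 at Klf5, a gene of 2 lists. Motor neuron transcription factors had 0 of 248, which allows a share of up to 1.48%, against 0.816% of other peaks and 0.189% of eligible bases. Cholinergic, JAK-STAT, liver, blood and muscle genes also had 0, but each list held so few eligible bases (0.340% for the cholinergic list and less for the others) that under 1 far peak would be in proportion, and housekeeping genes held none. Other peaks near cholinergic genes numbered 9 and near JAK-STAT genes 8.

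Intronic far peaks had high scores less often than intergenic ones. A score above the list median was found in 18 of 52 intronic peaks (34.6%, 22.0 to 49.1) and 107 of 195 intergenic peaks (54.9%, 47.6 to 62.0), giving an odds ratio of 0.437 (interval 0.216 to 0.858, adjusted p by the exact test = 0.0244). The median scores were 37.47 and 43.09. With 1 peak per region the odds ratio was 0.493 and no longer passed. TAATTA was in 40.4% of intronic and 31.8% of intergenic peaks (odds ratio 1.45, exact test, adjusted p = 0.252). There were 44 host genes, counting Cradd with the exonic peak. The median host length was 422 kb over the intronic peaks, against 163 kb over the peaks in gene bodies at 10 to 100 kb. The distance rule itself requires long hosts, because the start of the host must lie more than 100 kb away. Of the intronic peaks, 18 were nearer to the coding start of another gene. 1300010F03Rik held 4 far peaks, all in its introns, and Npas3, Vti1a, Ppp2r2b, Cntn5, Ptprn2 and Robo1 held 2 each.

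Sequence at far peaks was richer in AT than at other peaks. The median GC content of the 200 bp windows was 46.5% (quartiles 43.5 and 50) against 48.5%, and 91 far peaks (36.7%, 30.7 to 43.0) were above the list median against 51.0% of other peaks, giving an odds ratio of 0.557 (interval 0.420 to 0.736, adjusted p by the exact test = 0.000135). Against the 1222 peaks at 10 to 100 kb it was 0.633, and at 200 kb it was 0.614 and no longer passed. The flanks differed in the same direction, with medians of 42.25% and 45.5%. At least 1 CpG was present in 74.6% of far and 85.6% of other windows.

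The homeodomain core was more frequent at far peaks than beside them, and no difference from other peaks was detected. TAATTA was in 83 of 248 far windows (33.5%, 27.6 to 39.7) and in 40 of the 496 flanking windows of 200 bp centred 1 kb to each side (8.06%), giving an odds ratio of 5.72 (interval 3.71 to 8.93, adjusted p by the exact test = 1.51e-16). Other peaks had it in 34.4%, and the odds ratio of far against other peaks was 0.959 (0.717 to 1.28, exact test, adjusted p = 0.934), or 0.894 within 5 bins of GC content. This ratio turned above 1, without passing, under 4 of the alternatives tried, which are given in the closing section. The nearest core was a median of 25 bp from the maximum in both groups, and 68 of the 83 (81.9%) were within 50 bp, against 79.7% in other peaks. More than 1 copy was present in 15 far peaks (6.05%) and in 5.98% of other peaks.

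**Figure D3:**
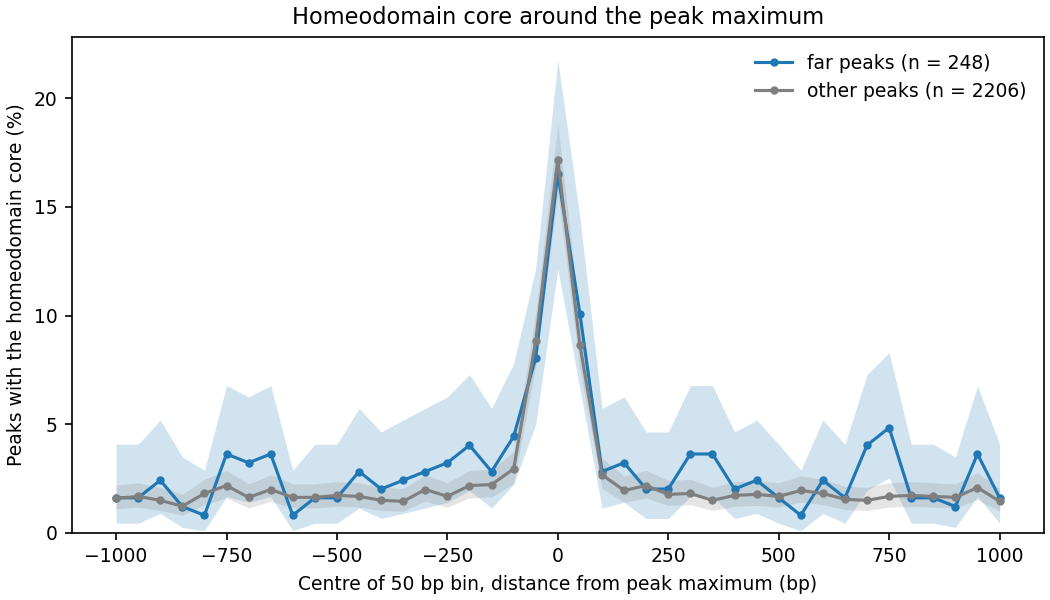
Share of far peaks (n = 248) and other peaks (n = 2206) with TAATTA in bins of 50 bp by distance from the maximum, with 95% exact intervals shaded. Both curves rise at the maximum, to 16.5% in far peaks and 17.2% in other peaks.

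Spaced copies of the short core were counted without a test, and their shares in far and other peaks were close for some spacings and apart for others. TAAT followed by TAAT in the same direction with 0 bases between was in 6.05% of far peaks, 6.89% of other peaks and 1.41% of far flanks, and with 5 bases between in 6.05%, 6.03% and 0.605%. ATTA followed by TAAT with 3 bases between was in 4.44%, 4.99% and 1.01%. The first of these repeats contains TAATTA. With 4 bases between, TAAT followed by TAAT was in 2.02% of far peaks (0.658 to 4.64) against 4.94% of other peaks, and TAAT followed by ATTA with 2 between in 1.21% against 3.31%. Others went the other way. TAAT followed by ATTA was in 2.42% against 0.952% with 5 between and in 2.02% against 0.771% with 11. ATTA followed by TAAT with 7 between was in 2.02% against 0.952%. These examples were picked from spacings of 0 to 12 bases in each arrangement.

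Of 18 motifs searched on both strands, 9 differed between far peaks and their flanks, 7 higher and 2 lower. Besides the homeodomain sites, which overlap each other, the octamer ATGCAAAT was in 6.05% of far peaks (odds ratio 3.12, 1.29 to 7.90, exact test, adjusted p = 0.0193), and the E-box CAGCTG, a site of basic helix-loop-helix factors, in 18.5% (odds ratio 2.40, 1.49 to 3.85, adjusted p = 0.000622). The AP-1 site TGANTCA was in 10.9% (odds ratio 2.04, exact test, adjusted p = 0.0234). Lower than in flanks were the scrambled control AATATT (2.02%, odds ratio 0.169) and the relaxed STAT site TTCNNNGAA, in 7 far peaks (2.82%) and 38 of 496 flanks (odds ratio 0.350, 0.130 to 0.810, exact test, adjusted p = 0.0193). A control with 1 more base between TTC and GAA was at 5.65% in far peaks (odds ratio 0.898, exact test, adjusted p = 0.922), and other peaks had the relaxed site in 5.26% (far against other, odds ratio 0.523, adjusted p = 0.348). With 100 bp windows 4 of the 18 motifs passed against flanks. The comparisons with flanks were not adjusted for GC content, which was higher in far windows (median 46.5%) than in their flanks (42.25%).

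Set against other peaks, 1 of the 18 motifs passed: the SOX hexamer ATTGTT was in 62 far peaks (25%, 19.7 to 30.9) and 290 other peaks (13.1%), giving an odds ratio of 2.20 (interval 1.58 to 3.03, adjusted p by the exact test = 4.06e-05). It was in 67 of the 496 flanks (odds ratio 2.13 against flanks, 1.42 to 3.20, exact test, adjusted p = 0.000615). The GATA site AGATAA (14.9% against 9.47%), CAGCTG (18.5% against 13.4%), ATTA (97.6% against 93.8%) and the GC box GGGCGG (4.03% against 8.43%) differed at an unadjusted p under 0.05 and did not pass after adjustment. The SOX call was lost with a threshold of 50 kb (1.40), in 100 bp windows (1.58) and without the peaks that resemble another (1.48, 0.966 to 2.21, exact test, adjusted p = 0.205), which the sequence families below describe. Within 5 bins of GC content the odds ratio was 2.09.

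**Figure D4:**
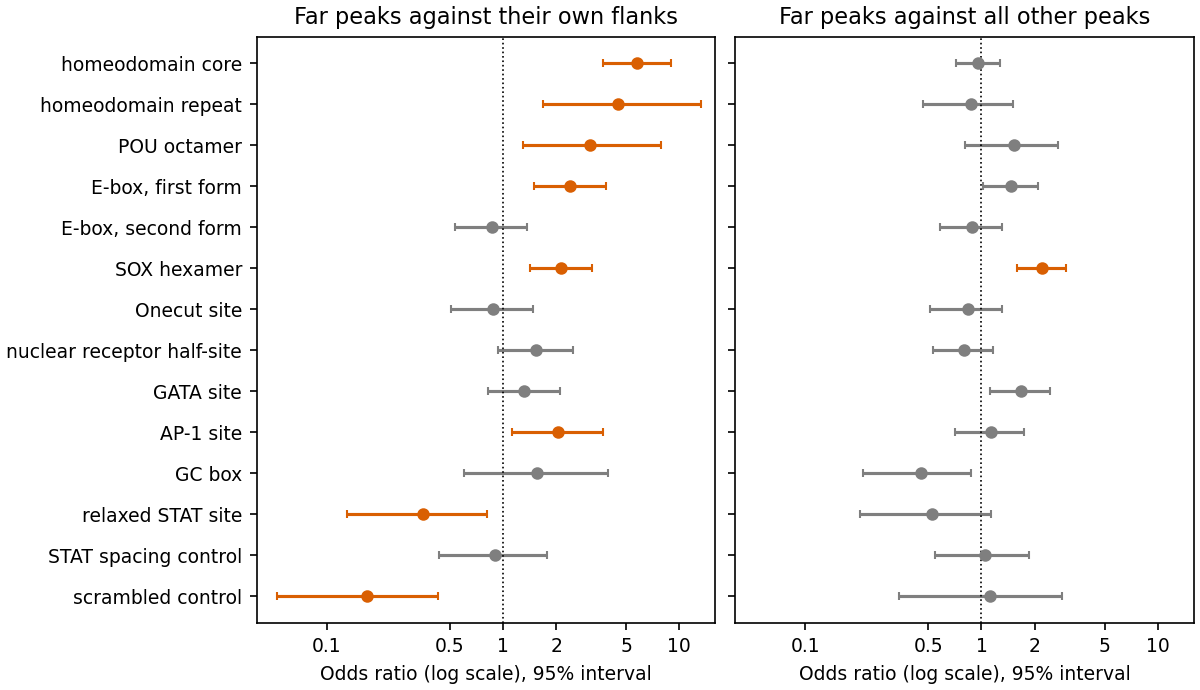
Odds ratios (log scale, 95% exact intervals) of 14 of the motifs in far peaks against their own flanks and against all other peaks, with adjusted p under 0.05 in orange and others in grey. The first E-box form is CAGCTG and the second CATCTG. The homeodomain core is at 5.72 against flanks and 0.959 against other peaks, and the SOX hexamer is above 1 in both.

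Searching all 2080 hexamers without choosing a motif, 295 differed between far peaks and flanks (14.2% of those tested, 172 higher and 123 lower). The lowest p was for TAATTA, followed by AATTAG (38.3% against 11.1%) and CAGCAG (41.5% against 14.1%). Against other peaks 18 hexamers differed (0.865% of those tested, 16 higher and 2 lower), led by ACAATA (20.2% against 9.29%) and AACAAT, the reverse complement of ATTGTT, with adjusted p = 0.00235 for both by the exact test. Several of the 16 overlap one another in sequence. The 2 lower ones were CGGAAG, in 1 far peak (0.403%) against 4.76% of other peaks, and CTCACA, in 6.05% of far peaks. Without the peaks that resemble another, 131 hexamers differed from flanks, and 0 differed from other peaks.

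Some far peaks shared longer sequence. In 500 bp windows compared with each other by BLAST, 51 far peaks (20.6%, 15.7 to 26.1) aligned over at least 150 bp across the maximum with a peak of another region, against 209 of 2206 other peaks (9.47%, 8.28 to 10.8). By distance from a start the share was 4.46% under 1 kb, 10.8% at 1 to 10 kb and 9.57% at 10 to 100 kb. This grouping was made after the hexamers had been seen, so these shares have no test, and they were close to these values with a minimum of 100 or 200 bp (20.6% and 20.2% of far peaks). The 51 peaks had a median score of 37.47 against 42.02 for the other 197 far peaks, and 0 of them held the octamer.

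The largest group among far peaks, called family 1 here, had 56 peaks in the list, of which 22 (39.3%, 26.5 to 53.2), in 21 regions, were far. All 22 far members held the SOX hexamer and 0 held TAATTA, and 27 of the 34 other members held the hexamer. Their scores ran from 30.78 to 84.31 with a median of 40.55, on 15 chromosomes. The windows of the 3 strongest far members are shown because they share the stretch around the hexamer. Capitals mark AACAAT, the reverse complement of ATTGTT, and each window is turned to the direction of the family.
Aga peak, chr8:53541127-53541326, plus strand: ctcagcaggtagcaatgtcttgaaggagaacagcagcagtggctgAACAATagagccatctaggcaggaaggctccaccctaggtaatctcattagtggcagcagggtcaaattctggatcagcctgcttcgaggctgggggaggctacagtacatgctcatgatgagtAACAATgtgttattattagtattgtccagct
Lrp1b intron peak, chr2:41015147-41015346, minus strand: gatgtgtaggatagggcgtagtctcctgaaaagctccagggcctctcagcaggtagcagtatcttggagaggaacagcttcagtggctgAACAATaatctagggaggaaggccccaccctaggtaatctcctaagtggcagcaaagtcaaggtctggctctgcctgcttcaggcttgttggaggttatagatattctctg
Gm10110 peak, chr14:92055292-92055491, minus strand: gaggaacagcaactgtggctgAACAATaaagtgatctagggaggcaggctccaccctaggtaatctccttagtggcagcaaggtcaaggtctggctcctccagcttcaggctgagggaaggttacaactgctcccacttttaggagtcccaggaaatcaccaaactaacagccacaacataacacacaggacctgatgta

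The strongest of these was 1056 kb from Aga, which encodes a lysosomal enzyme (score 84.31). The next was in an intron of Lrp1b, a lipoprotein receptor gene (72.27), and the third was 1757 kb from Gm10110 (67.98). Far members also included the Pcdh10 peak named above, 2 of the 5 Stim2 maxima and a pair of regions 164 and 171 kb upstream of Klf6, a zinc finger factor gene (44.43 and 42.56). The family's most connected window, on chromosome 5, aligned with 49 of the other members, at a median identity of 77.8% over 334 bp. The same window had 1501 alignments across mm9, of which 24.9% were over 100 kb from a start, and 3.66% of them lay in peaks, 5.61% of the far ones and 3.02% of the others.

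Family 2 had 15 peaks, 8 of them far (53.3%, 26.6 to 78.7), with TAATTA in 13 peaks and in 7 of the far members. Far scores ran from 33.19 to 68.79. The windows of the 3 strongest far members with TAATTA are shown, with TAATTA in capitals, because the core sits in the same shared stretch.
Gm4666 peak, chr14:107847541-107847740, plus strand: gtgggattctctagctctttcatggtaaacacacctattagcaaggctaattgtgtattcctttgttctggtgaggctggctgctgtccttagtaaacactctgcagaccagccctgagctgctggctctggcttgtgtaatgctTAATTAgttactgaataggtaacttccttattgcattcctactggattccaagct
Nmbr peak, chr10:14983292-14983491, plus strand: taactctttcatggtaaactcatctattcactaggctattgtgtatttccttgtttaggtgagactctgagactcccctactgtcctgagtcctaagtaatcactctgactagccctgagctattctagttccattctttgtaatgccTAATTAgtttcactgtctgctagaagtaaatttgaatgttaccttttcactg
Abca13 intron peak, chr11:9415092-9415291, plus strand: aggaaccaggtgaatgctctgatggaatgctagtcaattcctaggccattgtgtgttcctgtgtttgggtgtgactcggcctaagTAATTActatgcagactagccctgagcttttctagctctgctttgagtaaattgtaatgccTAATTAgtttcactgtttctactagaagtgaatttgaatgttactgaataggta

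These windows lay near Gm4666 (score 61.29), Nmbr, a neuropeptide receptor gene (43.36), and in an intron of Abca13, a lipid transporter gene (37.47). Of 940 alignments of the family's most connected window in mm9, 25.7% were far and 1.49% lay in peaks. Family 3 had 17 peaks with 7 far, including all 3 Fgf12 peaks and the stronger Cdh9 peak. Family 4, with 68 peaks, had 4 far (5.88%, 1.63 to 14.4) where 20.2% of its 35178 alignments were far, and TAATTA was in 45 of the 68. Family 5 had 15 peaks with 4 far, among them the Etv1 peak. Families 6 and 7 had 1 far peak each, of 7 and 5 peaks. Families 8, 9 and 10 had 0 far peaks of 10, 9 and 6. Of their alignments, 28.0%, 22.1% and 16.3% were far. Families 1 to 5 were described more fully because they had more far peaks, so their far shares are not an unselected sample.

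Among the far peaks that resemble another, in families or in smaller groups, the SOX hexamer was in 28 of 51 (54.9%, 40.3 to 68.9), and among the rest in 34 of 197 (17.3%, 12.3 to 23.3). Other peaks had it in 20.6% and 12.4%. TAATTA was in 29.4% of far peaks that resemble another and 34.5% of those that do not, and in 42.6% and 33.6% of other peaks. Members of a family share their sequence and are not independent, so the p-values of the hexamer and motif comparisons that include them are too small. How the authors placed reads that match several copies is not stated, and its part in the peaks of families was not tested.

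**Figure D5:**
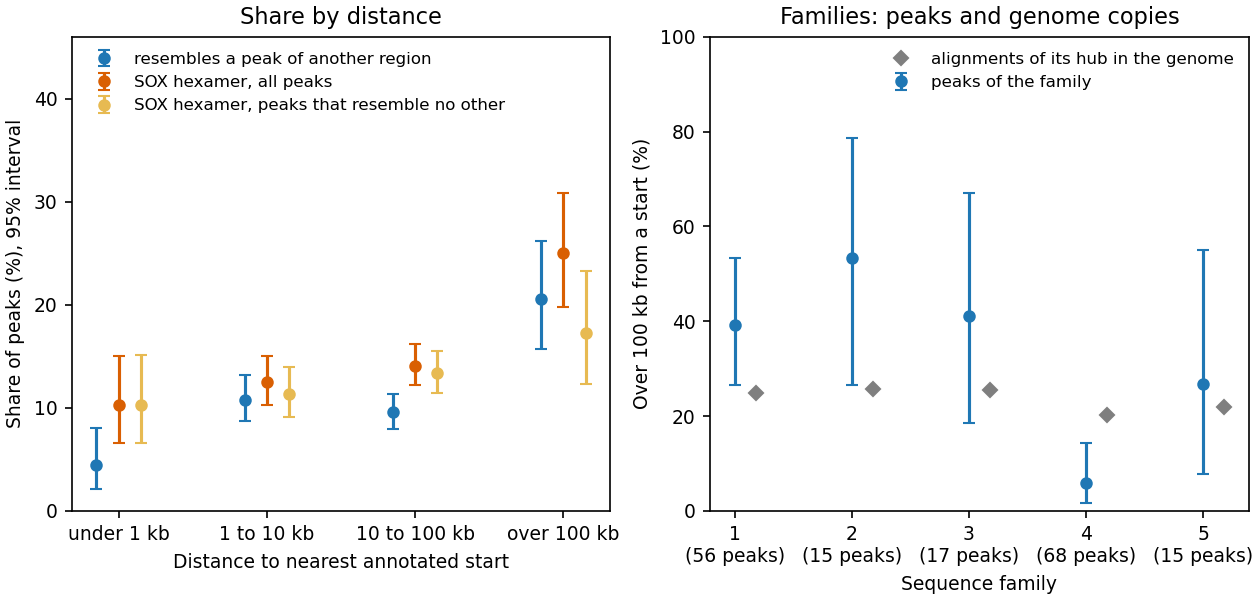
Left, the share of peaks in 4 classes of distance to the nearest start that resemble a peak of another region, that hold the SOX hexamer, and that hold it among peaks that resemble no other, with 95% exact intervals. Right, the share of peaks over 100 kb from a start in the 5 families with 4 or more far peaks (circles, 95% exact intervals) and of the genome alignments of each family's most connected window (diamonds), with family 1 at 39.3% against 24.9% and family 4 at 5.88% against 20.2%. The families drawn were picked by their number of far peaks, and families 6 to 10, with 1 or 0, are left out.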

How the data were processed

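The authors deposited 1 peak list for the series, and mm9 and BWA 0.5.8a are named in the submitters' processing notes. For the peak caller, score scaling and pooling of sets, details were not given in the sources used here. Both the ChIP and the background score are deposited values treated as the unit score. Tags are deposited as a whole count per region, shared by its peaks. A mitochondrial peak and a blank line were left out. The total depth per library is unknown.

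Peak maxima were set against all transcript starts of GENCODE M1 (37273 genes), and windows were read from the mm9 genome, 1-based. Shares were compared with two-sided Fisher's exact tests, with Benjamini-Hochberg adjustment within 6 peak properties, 18 motifs, 2080 hexamers or the pair of intron comparisons, at 0.05, and have Clopper-Pearson intervals. The p-values compare peaks of 1 list, not libraries. Flank comparisons counted far windows and flanking windows as separate windows, and did not pair each peak with its own flanks. Windows that resemble each other were found with BLAST 2.17.0 (E-value 1e-10, alignments of at least 150 bp that reach 25 bp to each side of the maximum in both windows), and a family has 5 or more linked peaks. SciPy 1.17.1 and R 4.3.3 were used, and the hexamer test was first tested on simulated data. Of 463 list genes, 461 matched by symbol or older symbol, through RefSeq names of GRCm38.p6 where needed. A comparison of repeat-masked bases was not run because the genome used has no masking.

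The members, lists and tests were chosen with earlier results of these data known. Named genes are those of the 10 strongest and 5 farthest far peaks, the peaks beside the threshold, coding genes nearest to 3 or more far peaks and up to 4 members of each list. Hosts, gene neighbours and family members were named after their values were seen. Alternatives changed the distance, the starts, the peaks kept, the comparison group, the window and the GC binning.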

Additional observations from a re-analysis of the deposited data

How the results depend on the processing

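Of 90 alternatives over all results, 63 kept the direction and the side of the threshold (a count stayed within 1.5 times), 12 turned the direction, 9 lost the call and 6 moved a count. All 12 turned ratios belong to results that did not pass, and their cause was not tested. For a score above the median the odds ratio was 0.913 with coding starts alone, 0.976 with 1 peak per region, 0.990 for peaks with background under 10% of the score and 0.992 for the highest 25% of scores. For tags it was 1.21 at 50 kb and 1.01 without peaks that resemble another, for a background of 0 it was 0.981 without those peaks, and for several maxima 0.610 at 200 kb. For TAATTA against other peaks it was 1.08 with coding starts alone, 1.12 in the highest-scoring 50%, 1.02 in 400 bp windows and 1.04 without peaks that resemble another.

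Calls were lost for another region within 10 kb at 50 kb (0.786), at 200 kb (0.282), with coding starts alone (0.706) and in the highest-scoring 50% (0.463), for GC content at 200 kb (0.614), for intronic against intergenic scores with 1 peak per region (0.493), and for the SOX hexamer at 50 kb (1.40), in 100 bp windows (1.58) and without peaks that resemble another (1.48). At 200 kb only 79 peaks are far, and the highest-scoring 50% holds 125 far peaks. Motifs passing against other peaks went from 1 to 0 in 100 bp windows and without peaks that resemble another, and those against flanks from 9 to 4 in 100 bp windows. Hexamers passing against other peaks went from 18 to 10 with 1 peak per region and to 0 without peaks that resemble another, which also took those against flanks from 295 to 131. The removal of peaks that resemble another and all alternatives of the SOX hexamer were chosen after seeing the data. No paired analysis was possible because the list has 1 value per peak for all libraries together. The repeat-masked comparison was not run.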
